A study of Mus musculus with 14 samples.

Results

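Lysosomal cystine can be let out of a cell by restoring its transporter or by a drug, and the RNA of mouse embryonic fibroblasts (MEFs) after each of these 2 routes was compared directly. Cystine itself was not measured in these files. In the first route, called the rescue here, cells transfected with a short hairpin RNA against Ctns (sh-CTNS) also received a CTNS plasmid. In the second, MEFs were treated with cysteamine. These were 4 of the 14 libraries of the series, 2 in each group, and all 1399 transcripts listed for every library were used, 1385 of them with a gene symbol. Both groups carry the genotype label WT and were made from polyadenylated RNA. The rescue libraries therefore differ from the cysteamine libraries by the hairpin, the plasmid and the transfection as well as by the route, and these cannot be told apart in the direct comparison. A control hairpin, an empty plasmid, and the dose and duration of cysteamine were not analysed here. To set each route against its own starting point, 4 more libraries were used: untreated MEFs labelled NT2 for cysteamine, and MEFs with sh-CTNS alone (the knockdown) for the plasmid. The labels do not say which untreated group belongs to cysteamine, and NT2, titled apart from the other untreated group NT, was assumed to be it. Separate cultures are not stated in the labels for the 2 libraries of a group. The p-values thus reflect the spread of 2 libraries a group, and that spread may be technical. Ctns itself was not among the listed transcripts, so neither the knockdown nor the plasmid was checked on its own target.

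Cystine, the oxidized dimer of cysteine, is released inside lysosomes when proteins are broken down. Cystinosin, the product of Ctns, is the membrane transporter that carries it to the cytosol, where it is reduced to cysteine for protein and glutathione synthesis. Cysteamine is a small aminothiol that enters lysosomes and reacts with cystine to give cysteine and a mixed disulfide, which leave through other transporters, and it is used as a drug in cystinosis, the disease caused by loss of cystinosin. Cytosolic cysteine supplies glutathione to Gpx4, the enzyme that removes lipid peroxides and protects cells from the iron-dependent death called ferroptosis. Embryonic fibroblasts make much of the extracellular matrix, whose collagens fold in the endoplasmic reticulum with the help of chaperones and disulfide isomerases.

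The libraries compared differed in size and makeup. Counts over the listed transcripts came to 135829 and 162055 with cysteamine and 87972 and 64530 in the rescue. They came to 165747 and 132998 in NT2 and 98481 and 79630 in the knockdown. The median count of a transcript was 46 and 55 with cysteamine, compared with 28 and 22 in the rescue. Of the transcripts, 341 form a class with high counts in NT, another untreated group of the series, relative to NT2, meaning over 2 times the median ratio. Neither of those groups is a side of the direct comparison, though the NT2 libraries share in its scaling and its estimate of the spread. This class held 16.8% ± 0.807 of the counts with cysteamine and 40.6% ± 1.71 in the rescue (SD, n = 2 each), against 32.3% ± 0.495 in the knockdown and 9.49% ± 0.145 in NT2, where the choice of the class favours a low share. Results for it are kept apart from those of the other 1058 transcripts. Levels below are CPM, a transcript's counts relative to the listed total of its library after TMM scaling (the trimmed mean of log ratios), and the value of each of the 2 libraries is given. Differences are log2 fold changes with their standard error (SE). Adjusted p-values are from edgeR's quasi-likelihood test over all 1399 transcripts with the Benjamini-Hochberg method, two-sided, with a threshold of 0.05.

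The rescue and cysteamine separated widely. Of the 1399 transcripts 572 passed the threshold (40.9%), 264 higher in the rescue (18.9%) and 308 lower (22%). Among the 1058 transcripts not high in NT 86 were higher (8.13%) and 304 lower (28.7%). In the class high in NT 178 of 341 were higher (52.2%) and 4 lower (1.17%). Both rescue libraries lay above both cysteamine libraries for 461 transcripts (33%), and both lay below for 519 (37.1%). The balance of the directions depends on the scaling. When the scaling factors were taken from the other 1058 transcripts alone, 391 transcripts were higher and 194 lower, and the median log2 fold change of all transcripts moved from -0.049 to 0.21. Values below are from the first scaling, in which small differences near 0 can change side. Counts under the second are given for some groups, and a group without such a count can be altered by it too. The question whether the 2 routes act alike was also put as a difference of effects, that of the plasmid on knockdown cells minus that of cysteamine on NT2 cells, which share no library. Here 184 transcripts passed (13.2%), 86 with a more positive effect of the plasmid (6.15%) and 98 with a more negative one (7.01%). With all 14 libraries in the fit 56 passed, and DESeq2 called 66. DESeq2 gave no adjusted p for 461 of the 1399 transcripts here and for 28 in the direct comparison. Such transcripts count as not called with DESeq2, so its counts, and a count of 0 above all, can understate. In the gene lists below, a count of 0 in edgeR's test was also 0 at an unadjusted p under 0.05, and with DESeq2 where that was run, unless another count is given.

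The largest rise in the rescue among transcripts not high in NT was that of Rnf213 (ENSMUST00000093902), which encodes a large ubiquitin ligase with antiviral and antibacterial functions. It measured 974 and 1068 CPM with cysteamine and 4546 and 4921 CPM in the rescue (log2 fold change 2.21 ± 0.12, adjusted p = 4.75e-08). The knockdown stood near cysteamine, at 1144 and 1126 CPM, and NT2 at 3075 and 2886 CPM, so no group overlapped another and the rescue held the highest libraries. It was also the transcript with the smallest adjusted p for the difference of effects, at 3.60 ± 0.17 (adjusted p = 1.74e-08). The plasmid raised it by 2.06 ± 0.12 against the knockdown, and cysteamine lowered it against NT2 (-1.54 ± 0.11).

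Next in order were Sltm, an RNA-binding nuclear protein gene, at 1.93 ± 0.19, and Fam129a, a stress-regulated gene, at 1.89 ± 0.40. Sltm measured 391 and 397 CPM with cysteamine against 1746 and 1222 CPM in the rescue, and the knockdown was already high at 1154 and 841 CPM. The matrix genes Emilin1 (1.80 ± 0.49), which binds elastic fibres, Ccdc80 (1.65 ± 0.32), a secreted protein of the matrix, and Col6a3 (1.62 ± 0.24), a chain of collagen VI, were among the 12 highest. So were Tbc1d5 (1.71 ± 0.24), which acts on vesicle trafficking from endosomes, Lyst (1.68 ± 0.43), which regulates the size of lysosomes and related organelles, and Xiap (1.50 ± 0.25), an inhibitor of caspases. Prkdc (1.63 ± 0.39), a DNA repair kinase gene, Tep1 (1.56 ± 0.48), a telomerase-associated protein gene, and Nexn (1.47 ± 0.39), an actin-binding protein gene, completed them. Several of these rest on few counts: the cysteamine libraries held 7 and 6 counts of Lyst, 6 and 9 of Emilin1 and 4 and 11 of Tep1. Without the first rescue library Emilin1 (1.58), Lyst (1.61), Prkdc (1.39), Tep1 (1.58) and Nexn (1.39) kept their direction but did not pass. The same held for Emilin1 (1.66) and Tep1 (1.13) without the first cysteamine library, for Lyst (1.45) and Nexn (1.27) without the second, and for Tep1 (1.60) without the second rescue library.

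The largest fall was that of Nid1 (ENSMUST00000005532), which encodes nidogen 1, the protein that links laminin to collagen IV in basement membranes. It measured 1822 and 2092 CPM with cysteamine and 257 and 228 CPM in the rescue (-3.00 ± 0.21, adjusted p = 7.51e-07). NT2 lay between, at 798 and 625 CPM, and the knockdown beside the rescue, at 231 and 359 CPM. S100a10, whose product binds annexin A2 at the plasma membrane, measured 406 and 497 CPM with cysteamine and 77 and 97.8 CPM in the rescue (-2.38 ± 0.38, adjusted p = 2.65e-04), on 6 and 6 counts in the rescue libraries. Cad, the enzyme that opens pyrimidine synthesis, measured 1195 and 1055 CPM against 372 and 244 CPM (-1.83 ± 0.20), and Ptgis, the prostacyclin synthase gene, 1018 and 1117 CPM against 347 and 244 CPM (-1.83 ± 0.19). The rule that chose these genes, and the 12 highest above, required that the libraries of the 2 groups do not overlap. The rest of the 12 lowest were the ribosomal protein genes Rpl36a, Rps27a and Rpl12, Rpl9-ps6, the growth-associated Tpt1, and Strap, Stoml2 and Ywhab, at -2.13 to -1.69. Rpl9-ps6 has the symbol of a ribosomal pseudogene but is annotated as protein coding, and its reads may be shared with its parent gene.

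**Figure D1:**
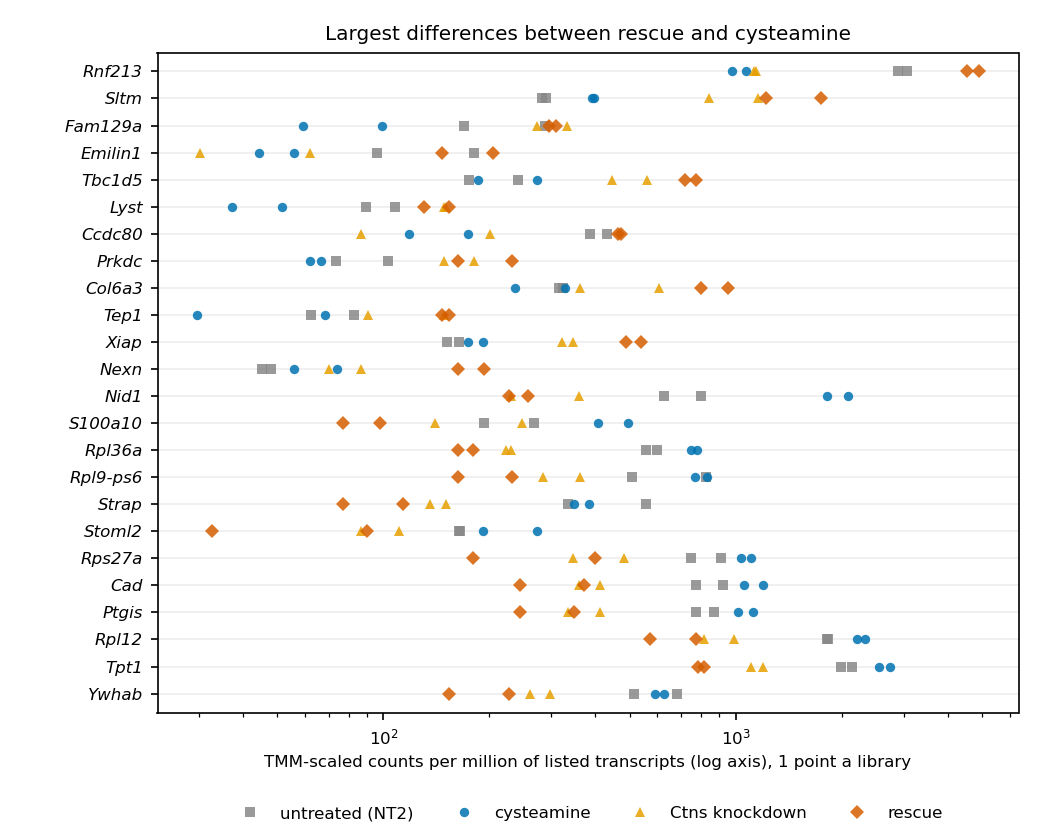
TMM-scaled CPM on a log axis for the 12 highest and 12 lowest transcripts of rescue against cysteamine that are not high in NT, 1 point a library, 2 libraries in each of 4 groups. Rnf213 stands at 4546 and 4921 CPM in the rescue and at 974 and 1068 CPM with cysteamine, and Nid1 at 257 and 228 CPM in the rescue and at 1822 and 2092 CPM with cysteamine.

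Extracellular matrix genes went in both directions. Of 48 matrix genes on the list 29 were listed, and their median was -0.41. In the rescue 9 were higher and 16 lower (18.9% and 22% over all transcripts). Higher were the 3 chains of collagen VI, the microfibrillar collagen that surrounds cells: Col6a1 measured 634 and 683 CPM with cysteamine and 1297 and 1385 CPM in the rescue (1.02 ± 0.14, adjusted p = 9.80e-05), Col6a2 rose by 0.78 ± 0.25 and Col6a3 by 1.62 ± 0.24. The chains of collagen I, the main fibrillar collagen, rose by less. Col1a2 measured 2228 and 2123 CPM with cysteamine and 4045 and 2933 CPM in the rescue (0.69 ± 0.15), and Col1a1 6463 and 6827 CPM and 8347 and 8326 CPM (0.33 ± 0.09). Postn, which encodes the matricellular protein periostin and is in the class high in NT, measured 14.8 and 31 CPM and 128 and 261 CPM (2.95 ± 0.53), on 2 and 5 counts with cysteamine. The basement membrane genes Col4a2 (0.61 ± 0.13) and Hspg2 (0.34 ± 0.11), which encodes perlecan, and the prolyl hydroxylase gene P4ha1 (0.86 ± 0.24) also rose. Col4a1, whose chain pairs with that of Col4a2 in collagen IV, was lower (-0.35 ± 0.13, adjusted p = 0.0423), and it did not pass with DESeq2, with the scaling from transcripts not high in NT (-0.092), or without either cysteamine, either rescue or the second knockdown library (-0.39 to -0.26). Of the genes that rose Col6a2 did not pass without the first rescue (0.76) or second cysteamine library (0.52), P4ha1 without the second cysteamine (0.77) or second rescue library (0.72), and Col1a1 without the first cysteamine library (0.29). Hspg2 did not pass without any 1 of the 4 (0.33 to 0.37), and Hspg2 and Col1a1 did not pass with listed totals as the scaling.

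Other fibrillar, basement membrane and crosslinking genes were lower in the rescue than with cysteamine. Col5a2, which regulates the width of collagen fibrils, measured 3010 and 2805 CPM with cysteamine and 1002 and 1141 CPM in the rescue (-1.45 ± 0.14, adjusted p = 4.50e-06). Lox, the enzyme that crosslinks collagen and elastin, measured 753 and 776 CPM against 282 and 277 CPM (-1.45 ± 0.19). Fibulin 2 (Fbln2, -1.05 ± 0.12), the laminin chain gene Lamb1 (-1.01 ± 0.17), Sparc (-0.85 ± 0.13) and the thrombospondins Thbs1 (-0.70 ± 0.17) and Thbs2 (-0.94 ± 0.25) followed. Col3a1 (-0.47 ± 0.15) and the fibronectin gene Fn1 (-0.41 ± 0.077) were lower by smaller amounts. Those 2 did not pass with the scaling from transcripts not high in NT, under which 9 matrix genes were higher and 10 lower. With DESeq2 the split was 5 and 8. Leaving out the second rescue library ended the calls of Thbs1 (-0.46), Thbs2 (-0.60) and Col3a1 (-0.50), and Col3a1 did not pass without the first rescue (-0.39) or first cysteamine library (-0.42). Hspg2 stood at -0.19 once the length trend described below was removed.

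Set against their starting points, the 2 routes moved many matrix genes in opposite directions. Cysteamine lowered 15 of the 29 against NT2 and raised 3, where 10.7% of all transcripts were lowered. The plasmid raised 11 of the 29 against the knockdown and lowered 0, where 2.93% of all transcripts were raised. With all 14 libraries in the fit the plasmid raised only 9 of all 1399 transcripts and lowered 0, so not all of the 11 passed there. Between the 2 effects the difference passed for 16 higher and 2 lower (6.15% and 7.01% over all transcripts). Its median was 1.05 against -0.12 over all transcripts. Col1a2 carried the clearest case: 9338 and 7833 CPM in NT2 and 2228 and 2123 CPM with cysteamine (-1.98 ± 0.14), and 1054 and 1212 CPM in the knockdown and 4045 and 2933 CPM in the rescue (1.63 ± 0.16), a difference of 3.62 ± 0.22 (adjusted p = 2.12e-07). Col6a2 (2.79 ± 0.35), Col6a1 (2.30 ± 0.20), Col1a1 (1.89 ± 0.13), Thbs1 (1.82 ± 0.29), Col3a1 (1.79 ± 0.21), Nid2 (1.71 ± 0.29), Timp3 (1.63 ± 0.19), Lox (1.47 ± 0.30) and Fn1 (1.30 ± 0.11) differed in the same sense. Genes outside the list did too, among them Emilin1 (3.45 ± 0.71), Ccdc80 (3.10 ± 0.45) and Plxna4 (2.89 ± 0.31), a semaphorin receptor gene. Nid1 went the other way (-1.69 ± 0.35), and cysteamine raised it by 1.45 ± 0.14 against NT2. With DESeq2 the counts were 13 higher and 1 lower, and with all 14 libraries 10 and 1. Nid1 did not pass without the second knockdown library (-1.28).

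The knockdown had the lowest levels of many matrix genes, 23 of the 29 being lower there than in NT2 (20.9% over all transcripts), and the plasmid effect began from those levels. Fn1 measured 21315 and 20482 CPM in NT2 and 11111 and 11712 CPM with cysteamine, and 6274 and 6470 CPM in the knockdown and 8552 and 8636 CPM in the rescue. Both rescue libraries lay between those of the knockdown and those of cysteamine. The 13 of 21 fibroblast markers that were listed, most of them matrix genes of this list, summed to 34845 and 35997 CPM with cysteamine, 30420 and 28986 CPM in the rescue, 17618 and 18112 CPM in the knockdown and 59359 and 54637 CPM in NT2. Fewer cells of a type and less RNA per cell cannot be told apart in these bulk samples, and their part in the matrix differences was not tested.

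**Figure D2:**
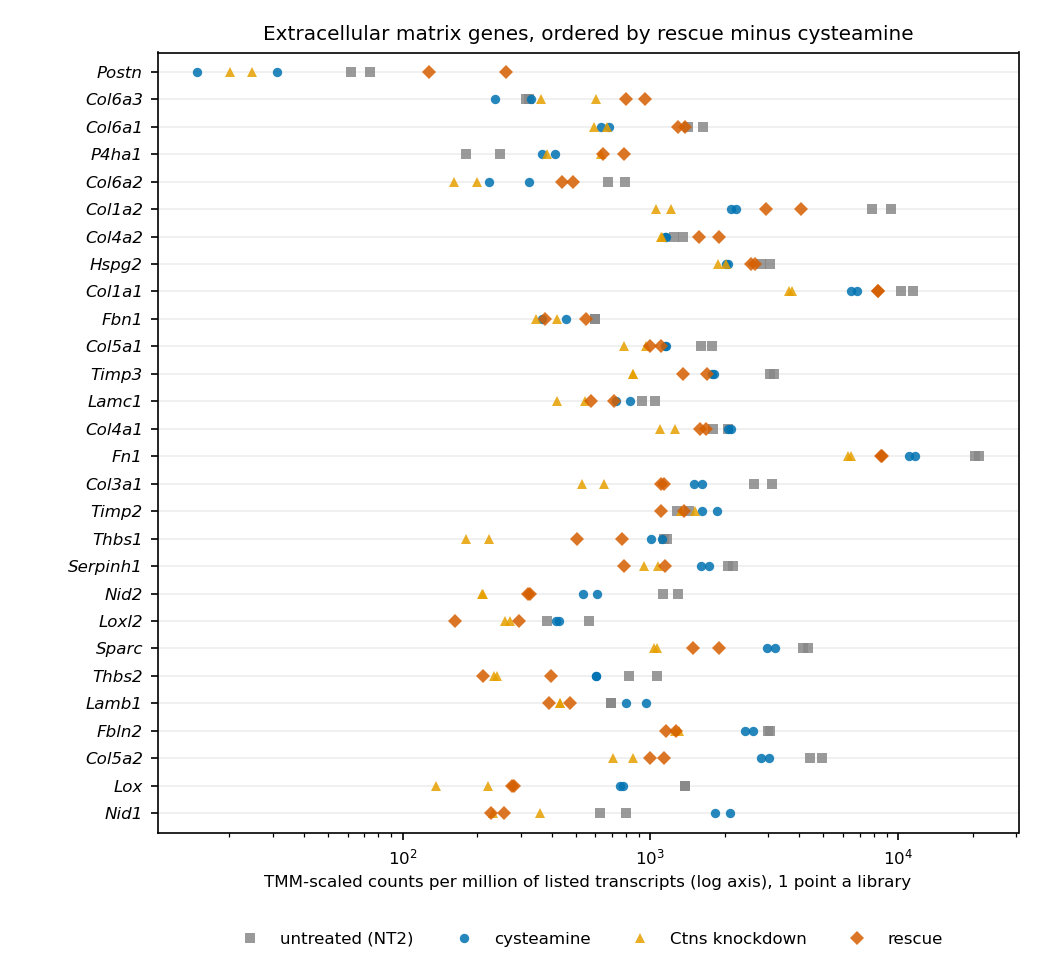
TMM-scaled CPM on a log axis for extracellular matrix genes, ordered by the log2 fold change of rescue against cysteamine, 1 point a library. Collagen VI and collagen I chains lie near the top, with the rescue above cysteamine, and Col5a2, Lox and Nid1 at the bottom, with the rescue below.

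Chaperones of the endoplasmic reticulum were higher in the rescue than with cysteamine where they passed. The list holds the genes that fold and quality-check secreted proteins, and the most responsive of them are induced when unfolded proteins gather there. Of 16 genes 10 were listed, 4 rose (18.9% over all transcripts), 0 fell and the median was 0.33 against -0.049 over all transcripts. The promoters of 3 of those that rose are shown because each holds the endoplasmic reticulum stress element, the sequence through which the unfolded protein response acts on these genes. Each line gives the 250 bases before the start of the gene, 5′ to 3′ on the gene's strand, from RefSeq on GRCm38.p6, with the element in capitals.

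Hspa5: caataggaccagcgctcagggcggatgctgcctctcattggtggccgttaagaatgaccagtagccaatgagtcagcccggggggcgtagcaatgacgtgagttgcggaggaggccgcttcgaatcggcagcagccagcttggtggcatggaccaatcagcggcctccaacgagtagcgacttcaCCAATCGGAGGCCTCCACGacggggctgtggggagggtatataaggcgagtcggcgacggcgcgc
Hsp90b1: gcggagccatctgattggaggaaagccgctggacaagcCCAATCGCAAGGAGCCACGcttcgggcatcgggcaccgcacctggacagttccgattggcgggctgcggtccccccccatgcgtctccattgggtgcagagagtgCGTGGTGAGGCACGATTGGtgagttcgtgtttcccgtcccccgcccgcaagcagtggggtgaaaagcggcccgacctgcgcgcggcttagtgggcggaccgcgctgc
Calr: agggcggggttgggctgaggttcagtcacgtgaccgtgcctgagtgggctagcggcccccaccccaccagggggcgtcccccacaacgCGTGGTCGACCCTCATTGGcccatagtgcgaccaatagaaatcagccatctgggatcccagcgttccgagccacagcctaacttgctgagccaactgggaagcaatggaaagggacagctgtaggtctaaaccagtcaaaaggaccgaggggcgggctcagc

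These windows lie at chr2:34771840-34772089 on the plus strand for Hspa5, at chr10:86705445-86705694 on the minus strand for Hsp90b1, and at chr8:84846932-84847181 on the minus strand for Calr. The motif was searched on both strands as CCAAT followed by CCACG with 9 bases of any kind between, and was chosen after the values were seen. It lay in 5 of the 9 chaperone promoters with a sequence, those of Canx and Pdia6 besides the 3 shown, and in 0.113% of all 32851 promoter windows of the same length. Hsp90b1 holds 2 copies that do not overlap. Hyou1 had no promoter sequence in the table. The motif was in 0 of 20 matrix promoters, 0 of 8 nucleolar ones and 0 of 8 of heat shock genes. A match describes these letters only, and no binding was measured. The element was searched as the one through which this response acts on these genes, so its share among them is not a result of these data. Canx and Pdia6 hold it and were not among the genes that rose. The share over the promoters of listed transcripts was not computed.

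Hspa5, the main chaperone BiP of the endoplasmic reticulum, measured 1630 and 1521 CPM with cysteamine and 2761 and 2607 CPM in the rescue (0.77 ± 0.11, adjusted p = 1.09e-04). The knockdown was higher still at 4256 and 4095 CPM, and NT2 stood at 3590 and 3628 CPM, so cysteamine was the lowest group and no group overlapped another. Hsp90b1, the chaperone Grp94, measured 929.6 and 968 CPM against 1554 and 1548 CPM (0.71 ± 0.13), and Calr, the calcium-binding chaperone calreticulin, 1321 and 1080 CPM against 1746 and 1972 CPM (0.63 ± 0.17). Hyou1, which helps to recharge BiP with nucleotide, measured 494 and 472 CPM against 758 and 717 CPM (0.62 ± 0.16). In these 3 as well cysteamine held the lowest libraries of the 4 groups. Of the genes with the motif, Canx measured 1402 and 1316 CPM with cysteamine and 1104 and 1255 CPM in the rescue and did not pass (adjusted p = 0.235).

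Against the starting points the larger move was that with cysteamine. Cysteamine lowered 9 of the 10 against NT2, where 10.7% of all transcripts were lowered, and the plasmid lowered 1, Hspa5 (-0.64 ± 0.11, from the high level of the knockdown). The knockdown already lay above cysteamine for 5 of the 10 (234 of all 1399 transcripts). It lay below for 0 in edgeR's test, and for 1 at an unadjusted p under 0.05. The rescue lay below NT2 for 7 of the 10 (299 of all 1399 transcripts), and all 10 log2 fold changes against NT2 were negative. The plasmid effect was the more positive one for all 10, and the difference passed for 6: Calr (1.30 ± 0.22), Hyou1 (0.93 ± 0.21), Rrbp1 (0.76 ± 0.18), a ribosome receptor of the membrane, Hsp90b1 (0.65 ± 0.17), P4hb (0.61 ± 0.17), a disulfide isomerase, and Hspa5 (0.56 ± 0.15). The number that passed fell to 1 with DESeq2, to 0 with all 14 libraries in the fit, where 56 of all transcripts passed, and to 1 without the first knockdown or the second cysteamine library. In the direct comparison 3 were higher with DESeq2 and 3 with all 14 libraries. There Calr did not pass without the second cysteamine (0.49) or second rescue library (0.55), nor Hyou1 without the second cysteamine (0.58) or first rescue library (0.63). With the scaling from transcripts not high in NT 6 were higher.

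Heat shock chaperones of the cytosol and mitochondria moved the opposite way. Of 22 genes 13 were listed, 11 fell in the rescue against cysteamine (22% over all transcripts), 0 rose, and the median was -0.86. Hspa8, the constitutive Hsc70, measured 6839 and 6591 CPM with cysteamine and 3300 and 3145 CPM in the rescue (-1.06 ± 0.093, adjusted p = 2.71e-06). Hsp90ab1 measured 14741 and 14740 CPM against 8231 and 8179 CPM (-0.85 ± 0.083) and Hsp90aa1, its inducible relative, 4102 and 4220 CPM against 2055 and 2118 CPM (-0.997 ± 0.11). In each of the 3 both rescue libraries lay below both cysteamine libraries, as for 37.1% of all transcripts. All 5 subunits listed of the chaperonin that folds actin and tubulin fell, Cct4 (-1.24 ± 0.19), Cct5 (-1.13 ± 0.20), Cct8 (-0.88 ± 0.20), Cct7 (-0.86 ± 0.15) and Cct6a (-0.72 ± 0.14). Hspa4 (-0.997 ± 0.16), Dnaja1 (-0.75 ± 0.23) and the mitochondrial Hspd1 (-0.51 ± 0.14) also fell. The 2 that did not pass were Hspa9, a mitochondrial chaperone, at 1306 and 1241 CPM and 1502 and 1206 CPM, and Hsph1 at 1011 and 1074 CPM and 925 and 1092 CPM. Without the first rescue library Hspd1 (-0.26), Dnaja1 (-0.58) and Cct8 (-0.57) did not pass either, nor Hspd1 (-0.46) and Dnaja1 (-0.68) without the first cysteamine library.

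Against their starting points, cysteamine raised 9 of these 13 genes (16.1% over all transcripts) and lowered 0. The plasmid lowered 3 (1.22% over all transcripts) and raised 0. With all 14 libraries in the fit the plasmid lowered 0 of all transcripts. The knockdown already lay below cysteamine for 9 of the 13 (21.1% over all transcripts) and above it for 0. The rescue lay below NT2 for 6 of the 13 and above it for 1 (299 and 279 of all 1399 transcripts). Hsp90aa1 measured 1976 and 2020 CPM in NT2 and 4102 and 4220 CPM with cysteamine (1.06 ± 0.10), and 3564 and 3823 CPM in the knockdown and 2055 and 2118 CPM in the rescue (-0.82 ± 0.11). For Hsp90aa1 the rescue thus lay at the level of NT2, and the knockdown nearer to cysteamine. Plasmid and cysteamine effects differed by -1.88 ± 0.15 (adjusted p = 3.38e-06), and the difference was negative for all 13 and passed for 7, among them Hsp90ab1 (-1.11 ± 0.12), Hspa8 (-1.07 ± 0.13) and Hsph1 (-0.98 ± 0.22). With DESeq2 3 passed, with all 14 libraries 1, and without the second knockdown or the first rescue library 3.

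Nucleolar genes and ribosomal protein genes were lower in the rescue. Of 20 genes for the nucleolus and ribosome assembly 10 were listed, 7 fell (22% over all transcripts) and 0 rose, with a median of -0.65. Npm1, which encodes nucleophosmin, a shuttling chaperone of ribosome assembly, measured 3040 and 3227 CPM with cysteamine and 1233 and 1255 CPM in the rescue (-1.33 ± 0.13, adjusted p = 6.40e-06). Nop56, a core protein of the particles that methylate ribosomal RNA, measured 1402 and 1521 CPM against 783 and 439.9 CPM (-1.22 ± 0.19). Mybbp1a (-1.19 ± 0.13), Ddx21 (-0.98 ± 0.18), Utp20 (-0.69 ± 0.17), Tcof1 (-0.54 ± 0.16) and the nucleolin gene Ncl (-0.46 ± 0.10) fell too. In Npm1, Mybbp1a and Nop56 the cysteamine libraries lay above all libraries of the other 3 groups. For Ncl they measured 4950 and 5406 CPM, against 2401 and 2260 CPM in NT2 and 3724 and 3934 CPM in the knockdown. Cysteamine raised 8 of the 10 against NT2, where 16.1% of all transcripts were raised. The plasmid changed 0 of them against the knockdown in edgeR's test, and 1 at an unadjusted p under 0.05. The knockdown already lay below cysteamine for 6 of the 10 (21.1% over all transcripts) and above it for 0. The difference of effects was negative for all 10 and passed for 6, Nop56 (-1.12 ± 0.28), Mybbp1a (-1.13 ± 0.18), Ncl (-1.17 ± 0.14), Utp20 (-1.03 ± 0.23), Ddx21 (-1.08 ± 0.26) and Npm1 (-0.84 ± 0.19). With the scaling from transcripts not high in NT 4 of the 10 fell in the direct comparison, and Ncl, Tcof1 and Utp20 did not pass. Without the first rescue library Tcof1 stood at -0.22 and Utp20 at -0.52, neither past the threshold, and Tcof1 did not pass without the first (-0.55) or the second cysteamine library (-0.52). For the difference of effects DESeq2 called 2, edgeR's fit of all 14 libraries called 0, and 3 passed without the second cysteamine library.

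Ribosomal protein and elongation factor genes formed the largest list. All 63 transcripts whose symbols mark them as such were used, which takes in the kinase gene Rps6ka2. Of these 56 were lower in the rescue (22% over all transcripts) and 0 higher, with a median of -0.97. Rps6, a protein of the small subunit, measured 1822 and 1818 CPM with cysteamine and 668 and 701 CPM in the rescue (-1.41 ± 0.13, adjusted p = 4.24e-06). Rpl36a, of the large subunit, measured 775 and 745 CPM against 179.8 and 163 CPM (-2.13 ± 0.21), Rps2 4493 and 4047 CPM against 1644 and 1743 CPM (-1.34 ± 0.13), and the poly(A)-binding protein gene Pabpc1 3984 and 3718 CPM against 1361 and 1466 CPM (-1.45 ± 0.12). The groups did not overlap in any of the 4, each with the rescue below, as for 37.1% of all transcripts. For Rpl36a the rule that named it required this. Cysteamine raised 37 of the 63 against NT2 (16.1% over all transcripts) and lowered 0. The plasmid lowered 2 against the knockdown, near the share over all transcripts (1.22%), and raised 0. The knockdown lay below NT2 for 29 (20.9% over all transcripts), and already below cysteamine for 55 (21.1% over all transcripts). Effects differed past the threshold for 21, all negative, among them Pabpc1 (-1.07 ± 0.16), Rps6 (-0.98 ± 0.19) and Rps7 (-1.31 ± 0.26). The number was 14 with the scaling from transcripts not high in NT, 4 with DESeq2, 2 with all 14 libraries, and 6 to 16 when 1 library was left out, the lowest without the second knockdown library.

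Short transcripts as a class were lower in the rescue, and ribosomal transcripts are among the shortest. Over the 1049 transcripts not high in NT with a known length, Spearman's rank correlation between length and the log2 fold change was 0.416 across transcripts, which share their libraries and are not independent replicates. In 5 groups of nearly equal number by length the median log2 fold change went from -0.71 in the shortest (348 to 2307 bases) through -0.43, -0.21 and -0.13 to 0.14 in the longest (7622 to 27908 bases). The median length was 1094 bases in the ribosomal list, 2484 in the heat shock list, 4658.5 in the nucleolar list and 4393 over the transcripts not high in NT. With the trend against length removed, 36 of the 63 ribosomal genes, 10 of the 13 heat shock genes and 7 of the 10 nucleolar genes still passed as lower. The difference of effects followed length less closely, with a rank correlation of 0.209, and the ribosomal genes lower there numbered 9 after removal.

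**Figure D3:**
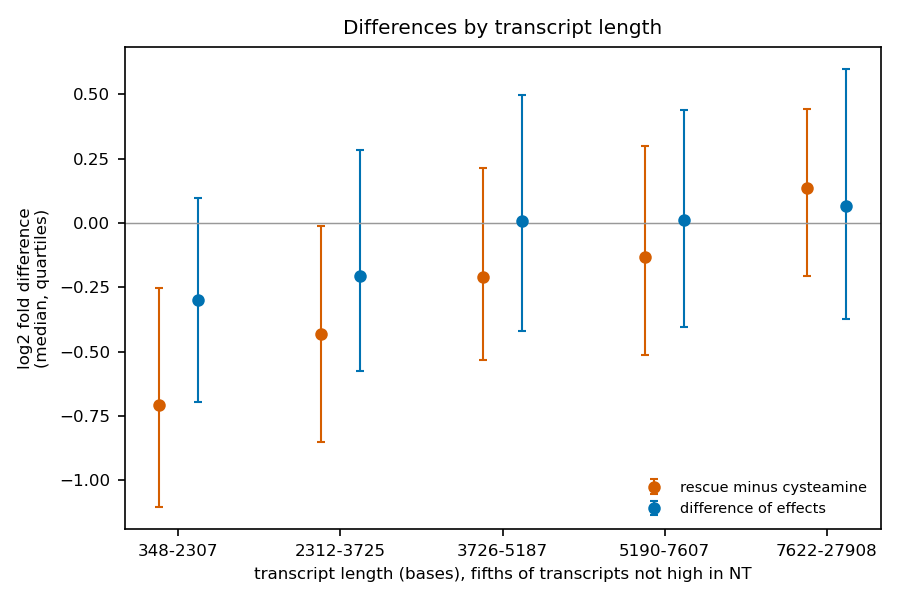
Median log2 fold change (points) with the quartiles (bars) in 5 groups by transcript length, for rescue against cysteamine and for the difference of effects, over transcripts not high in NT. For rescue against cysteamine the median climbs from -0.71 in the shortest group to 0.14 in the longest.

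Genes of the cytoskeleton and of contraction were mostly lower in the rescue, with 1 exception. The list joins actin, tropomyosin and filamin genes with targets of the mechanosensitive coactivator YAP. Of 23 listed, 13 fell and 1 rose (22% and 18.9% over all transcripts), and the median was -0.61. Vim, the intermediate filament of mesenchymal cells, measured 4914 and 5406 CPM with cysteamine and 1734 and 1792 CPM in the rescue (-1.55 ± 0.11, adjusted p = 8.02e-07). Actb measured 10115 and 9769 CPM against 4700 and 4139 CPM (-1.17 ± 0.10). The integrin gene Itgav, whose product binds fibronectin and vitronectin, measured 834 and 863 CPM against 282 and 358 CPM (-1.42 ± 0.18). In these 3 no library of the rescue reached one with cysteamine, as for 37.1% of all transcripts. The focal adhesion genes Vcl (-0.92 ± 0.16) and Zyx (-0.87 ± 0.16) and the filamins Flna (-0.59 ± 0.12) and Flnc (-0.82 ± 0.13) were lower as well. The exception was the smooth muscle actin gene Acta2, a mark of contractile fibroblasts, at 753 and 838 CPM with cysteamine and 1348 and 1108 CPM in the rescue (0.63 ± 0.15). Acta2 did not pass with DESeq2 or without the first rescue library (0.53).

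Cysteamine raised 3 of the 23 and lowered 3 against NT2, near the shares over all transcripts (16.1% and 10.7%). The plasmid raised 1 and lowered 2 against the knockdown (2.93% and 1.22% over all transcripts), while 15 were already lower in the knockdown than with cysteamine (21.1% over all transcripts). Between effects, 3 genes differed in each direction (6.15% higher and 7.01% lower over all transcripts). Acta2 differed by 1.64 ± 0.21 (adjusted p = 2.09e-04), raised by the plasmid (1.23 ± 0.17) and lowered by cysteamine (-0.41 ± 0.13). Tln1, the talin that links integrins to actin, differed by 0.81 ± 0.16, and Lima1 by 0.97 ± 0.29. Vim (-0.82 ± 0.16) and Flnc (-0.72 ± 0.17) went the other way. Plaur, the urokinase receptor gene, had the most negative difference of effects of all named transcripts, at -2.35 ± 0.61. The rescue held 4 and 12 counts of it, and it did not pass without the first NT2 (-2.21), the first rescue (-1.48), the second cysteamine (-2.14) or the second knockdown library (-2.11). S100a10 (-2.11 ± 0.53) did not pass without the same libraries (-1.88, -1.81, -1.95 and -1.59). Ifrd1, a transcriptional coregulator gene, stood at -1.73 ± 0.39 and did not pass with DESeq2 or without the first rescue or the second knockdown library (both -1.49). Lima1 did not pass without any of 7 of the 8 libraries (0.79 to 1.12), nor Flnc without the first rescue (-0.64), the second cysteamine (-0.63) or the second knockdown library (-0.51).

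Genes of iron handling and redox defence bear on the sensitivity to ferroptosis, and 5 of the list of 25 were listed. Of these 2 were lower in the rescue (22% over all transcripts), 0 higher, and the median was -0.69. Fth1, the heavy chain of the iron store ferritin, measured 3143 and 3414 CPM with cysteamine and 2260 and 1776 CPM in the rescue (-0.69 ± 0.15, adjusted p = 0.00256). NT2 stood at 1688 and 1271 CPM and the knockdown at 1717 and 1584 CPM, so cysteamine held the highest libraries and the rescue lay between. Prdx1, a peroxiredoxin that removes hydrogen peroxide, measured 878 and 962 CPM against 347 and 489 CPM (-1.17 ± 0.19), with 430.4 and 447 CPM in NT2 and 381 and 272 CPM in the knockdown. Gpx4 itself measured 266 and 229.6 CPM with cysteamine and 193 and 212 CPM in the rescue and did not pass (adjusted p = 0.473), on 15 and 13 counts in the rescue. The ferritin receptor gene Ncoa4 measured 288 and 242 CPM against 154 and 163 CPM (adjusted p = 0.0885), and Abcc1, an exporter of glutathione conjugates, 398 and 434 CPM against 334 and 358 CPM (adjusted p = 0.398). Cysteamine raised Fth1 (1.14 ± 0.15), Prdx1 (1.07 ± 0.16) and Abcc1 (1.31 ± 0.23) against NT2, and the plasmid changed 0 of the 5 against the knockdown, where 0 had an unadjusted p under 0.05 too. For the difference of effects Fth1 passed at -0.85 ± 0.22 (adjusted p = 0.0217), and the count was 0 with DESeq2 and with all 14 libraries. Leaving out 1 library ended that call for 6 of the 8, either cysteamine or knockdown library or the second of NT2 or the rescue, at -0.90 to -0.66. Fth1 did not pass in the direct comparison once the length trend was removed.

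Of 8 listed lysosomal and autophagy genes 1 was higher in the rescue and 0 lower (18.9% and 22% over all transcripts), and the median was -0.022. At an unadjusted p under 0.05, 1 was lower. The gene that passed was Sqstm1, the autophagy receptor p62, at 1099 and 1012 CPM with cysteamine and 1451 and 1499 CPM in the rescue (0.48 ± 0.14, adjusted p = 0.015). NT2 stood lowest, at 527 and 399 CPM, and the knockdown highest, at 2028 and 2128 CPM. Cysteamine raised it by 1.17 ± 0.15 against NT2, and with the plasmid it stood -0.49 ± 0.14 from the knockdown (adjusted p = 0.0606), a difference of effects of -1.67 ± 0.20 (adjusted p = 1.29e-04). The direct difference did not pass when libraries were scaled to their listed totals, or without the second cysteamine (0.42) or second rescue library (0.46). The cathepsins Ctsa (450.0 and 422 CPM against 475 and 375 CPM) and Ctsl (539 and 559 CPM against 359.5 and 439.9 CPM) and the saposin precursor Psap (539 and 484 CPM against 604 and 538 CPM) did not pass (adjusted p = 0.969, 0.0954 and 0.562). The lysosomal membrane protein gene Lamp1 measured 1689 and 1744 CPM with cysteamine and 1361 and 1532 CPM in the rescue (adjusted p = 0.165). With the scaling from transcripts not high in NT 2 of the 8 were higher, and with DESeq2 0 passed.

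Atf4, the transcription factor through which cells respond to amino acid shortage and other stresses, was lower in the rescue. It measured 885 and 1024 CPM with cysteamine and 424 and 456 CPM in the rescue (-1.13 ± 0.17, adjusted p = 1.63e-04). NT2, at 889 and 866 CPM, lay at the level of cysteamine, and the knockdown between, at 703 and 581 CPM. Among 5 genes of amino acid synthesis and one-carbon metabolism 3 were lower (22% over all transcripts), among them the serine synthesis gene Phgdh (-0.65 ± 0.21) and Shmt2 (-0.77 ± 0.28). With DESeq2 or with all 14 libraries 0 of the 3 passed. Without the second rescue library Phgdh and Shmt2 stood at -0.45 and -0.38, and without the second cysteamine library at -0.53 and -0.85, with no call. With the scaling from transcripts not high in NT 1 of the 5 was higher and 0 lower. Mthfd2, a folate enzyme gene and a common Atf4 target, measured 266 and 329 CPM with cysteamine and 334 and 326 CPM in the rescue (adjusted p = 0.707). Of 4 amino acid transporters 1 was lower, near the share over all transcripts (22%). It was the glutamine transporter Slc38a2, at 767 and 719.9 CPM against 398 and 439.9 CPM (-0.83 ± 0.19). Slc38a2 did not pass with DESeq2 or without the first rescue library, where it stood at -0.69. Slc3a2, the heavy chain of the cystine importer, measured 309.9 and 298 CPM against 321 and 244 CPM (adjusted p = 0.832), with 176 and 234 CPM in NT2 and 311 and 285 CPM in the knockdown. Of 8 aminoacyl-tRNA synthetases 2 were higher (18.9% over all transcripts), Eprs (0.49 ± 0.15) and Aars (0.40 ± 0.14). The count was 0 with DESeq2, with all 14 libraries and with libraries scaled to their listed totals, which gave 2 lower instead. Aars did not pass without any 1 of the 4 libraries compared (0.37 to 0.43), nor Eprs without the first cysteamine (0.38) or second rescue library (0.47). Effects differed for 1 of these 17 genes, near the share of all transcripts with a more positive effect of the plasmid (6.15%). It was the proline synthesis gene Aldh18a1 (1.62 ± 0.36), which cysteamine lowered against NT2 (-1.14 ± 0.21). Aldh18a1 did not pass with DESeq2 or without the second rescue library (1.32).

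The 3 listed interferon-inducible genes were all higher in the rescue, where 18.9% of all transcripts were. Of them 2, Trim25 and H2-D1, are in the class high in NT, of which 52.2% were higher. Rnf213 is described above. Trim25, a ubiquitin ligase that activates an RNA sensor, measured 347 and 279 CPM with cysteamine and 873 and 701 CPM in the rescue (1.35 ± 0.21, adjusted p = 2.21e-04). H2-D1, a class I histocompatibility gene, measured 44.3 and 62.1 CPM and 141 and 179 CPM (1.54 ± 0.41), on 6 and 10 counts with cysteamine, and did not pass without the second rescue library (1.38) or with DESeq2. Trim25 and H2-D1 were already higher in the knockdown than with cysteamine, at 552 and 433 CPM and 221 and 186 CPM. For those 2 the effects did not differ past the threshold (adjusted p = 0.684 and 0.84). The rescue and knockdown cells were transfected and the cysteamine cells were not, and the part of transfection in this group cannot be told apart from that of the hairpin or plasmid.

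**Figure D4:**
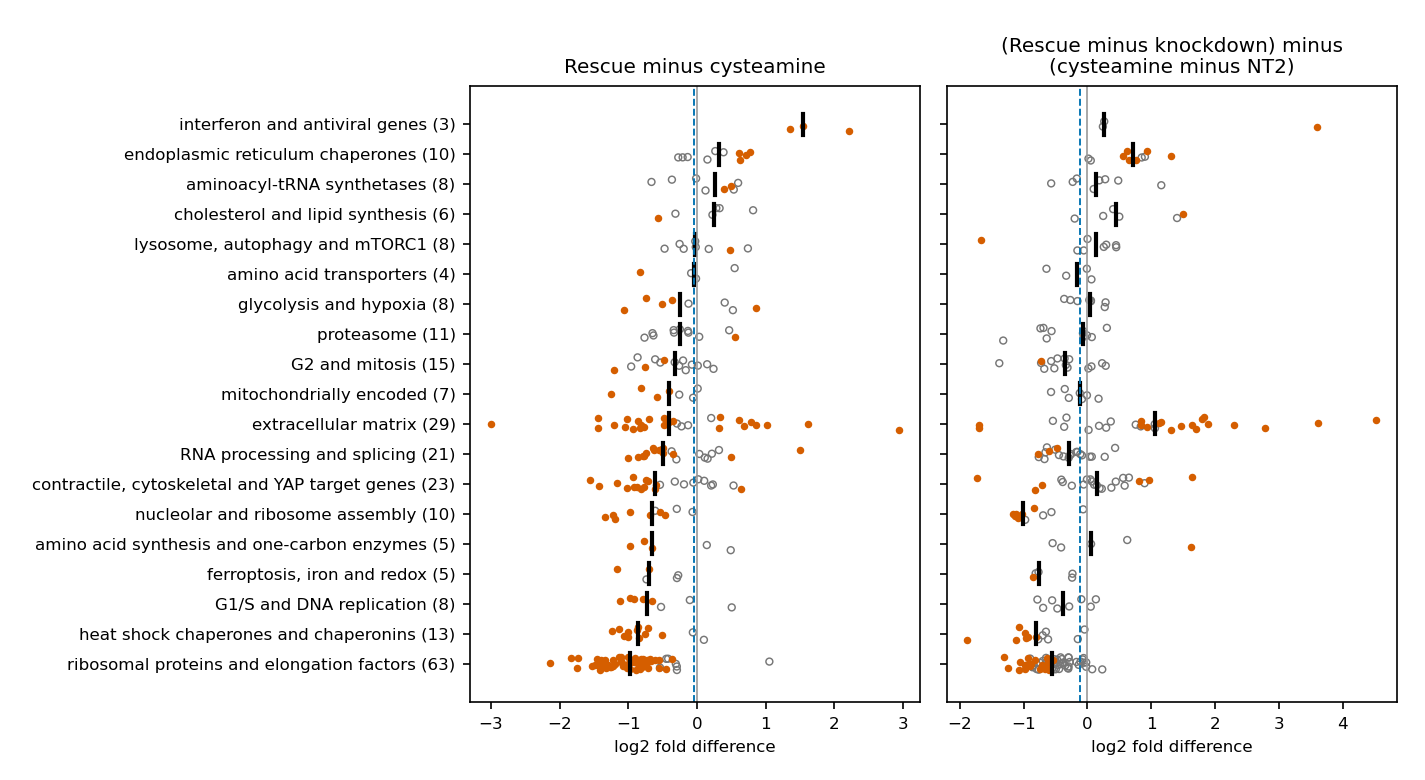
Log2 fold change of each member of 19 gene lists for rescue against cysteamine and for the difference of effects, with called members as filled points, uncalled ones as open points, list medians as black bars and the median over all transcripts as a dashed line. Ribosomal, heat shock and nucleolar genes lie mostly to the left of 0 in both panels, and matrix genes spread to both sides in the first panel and mostly to the right in the second.

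The class high in NT made up 178 of the 264 higher transcripts. Its median log2 fold change was 1.15 against -0.23 for the others. The 3 transcripts with the most counts belong to it: Luc7l2, a splicing factor gene, measured 31075 and 29685 CPM with cysteamine and 90592 and 80360 CPM in the rescue (1.49 ± 0.075), and Pigl and Pglyrp3 differed by 1.40 ± 0.091 and 1.54 ± 0.11. Together the 3 held 7.85% ± 0.183 of the counts with cysteamine and 19.8% ± 1.73 in the rescue (SD, n = 2 each). The largest differences of the class after Postn were those of Emid1 (2.75 ± 0.38), Gpr162 (2.69 ± 0.51), Ctrb1 (2.66 ± 0.31), Acox3 (2.62 ± 0.30) and Myrfl (2.57 ± 0.47). Ctrb1, a digestive enzyme precursor of the pancreas, measured 73.8 and 99.3 CPM with cysteamine and 578 and 538 CPM in the rescue, and it was 1 of 11 pancreas markers on the list, the only one of them listed. The 4 of the class that were lower were Fam171a1 (-1.96 ± 0.54), Etv4 (-1.31 ± 0.43), a transcription factor gene, Ndst1 (-1.15 ± 0.26), which modifies heparan sulfate, and Ftsj3 (-0.82 ± 0.18), a ribosomal RNA methyltransferase gene. Fam171a1 did not pass without the first rescue library (-1.73), nor Etv4 without the first cysteamine (-1.11) or second rescue library (-0.88). The knockdown was higher than cysteamine for 137 of the 341 (40.2%), and the plasmid raised 21 against the knockdown (6.16%). The class was chosen partly by low counts in NT2, the libraries against which the cysteamine effect is measured. Its counts for that effect, 86 raised (25.2%), and for the difference of effects, 2 higher (0.587%) and 15 lower (4.4%), are therefore partly set by the choice and nothing is read from them.

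Markers of other cell types than fibroblasts were few among the listed transcripts. They numbered 3 of 15 for epithelium, 2 of 17 for muscle, 1 of 10 for endothelium and 1 of 8 for kidney tubule, and 0 for blood and immune cells, nerve and glia, and adipocytes. The summed epithelial markers measured 753 and 602 CPM with cysteamine and 1271 and 994 CPM in the rescue, and the summed muscle markers 524 and 484 CPM against 1246 and 1434 CPM. Of the 3 epithelial markers 1 was higher in the rescue and 1 lower (18.9% and 22% over all transcripts), so their sum joins opposite moves. The single endothelial marker measured 199 and 211 CPM against 141 and 81.5 CPM, and the single kidney marker 214 and 248 CPM against 437 and 570.3 CPM. The class high in NT, of which 52.2% were higher, takes in 2 of the 3 epithelial markers and the 2 muscle markers. It also takes in the endothelial and the kidney marker. These listed markers lack most defining genes of their cell types, and their part in the differences was not tested.

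Across all listed transcripts the effects of the 2 routes were weakly related. Over the 1058 transcripts not in the class, the plasmid and cysteamine effects had a Pearson correlation of -0.208 and a Spearman correlation of -0.162. Within the 341 of the class the correlations were 0.329 and 0.413. With the class included, over all 1399 transcripts, they were 0.127 and 0.117, so the sign depends on the class. NT2 defines the class and is also the start of the cysteamine effect. The correlations on either side of the split are therefore partly set by the choice, and nothing is read from their signs. These are descriptions across transcripts that share 8 libraries and the scaling. Of the 58 transcripts that passed for the plasmid against the knockdown (4.15%), 41 were higher (2.93%) and 17 lower (1.22%), while cysteamine against NT2 gave 375 (26.8%), 225 higher (16.1%) and 150 lower (10.7%). With all 14 libraries in the fit these 2 totals were 9 and 147. DESeq2 called 23 and 132, and gave no adjusted p for 1058 and 515 of the 1399 transcripts.

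**Figure D5:**
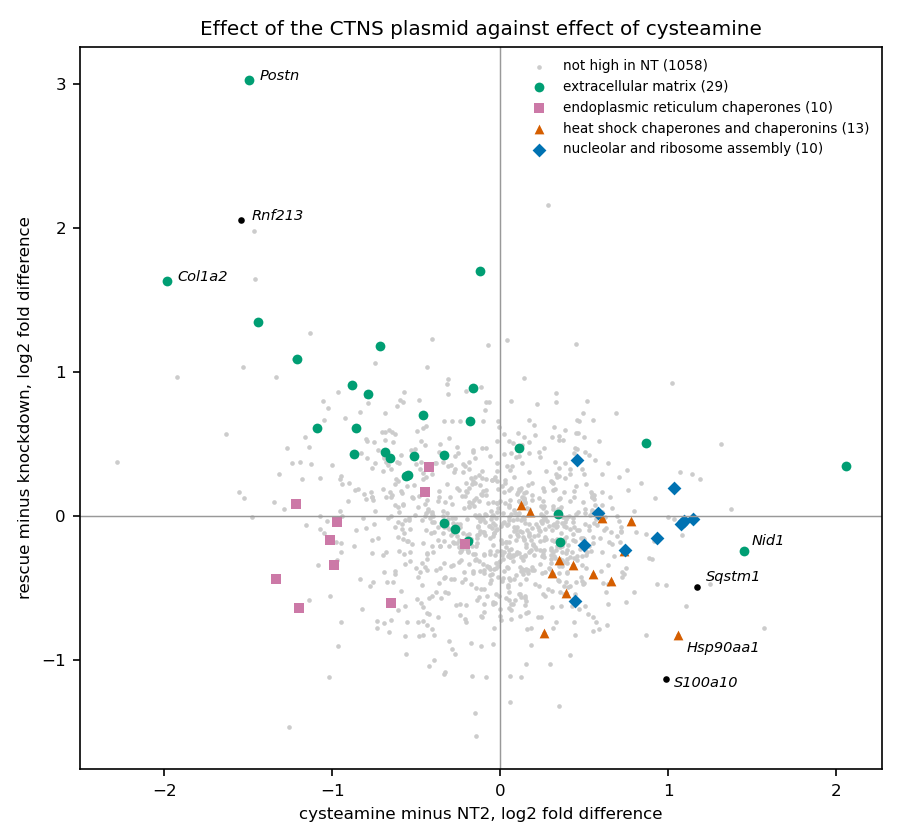
Log2 fold change of the rescue against the knockdown (vertical axis) plotted against that of cysteamine against NT2 (horizontal axis) for the 1058 transcripts not high in NT, with matrix, endoplasmic reticulum chaperone, heat shock and nucleolar genes marked whether or not they are high in NT, and Sqstm1, S100a10 and Rnf213 in black. Many matrix genes lie left and up, with cysteamine effects below 0 and plasmid effects above, and heat shock and nucleolar genes lie to the right.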

How the data were processed

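RNA of mouse embryonic fibroblasts was extracted with TRIzol, selected for polyadenylated RNA, fragmented, tailed and sequenced, per the labels' protocols. The submitters' processing notes name GRCm39 and, with no role or order, STAR 2.7.10a, Bowtie 1.2.3, cutadapt 2.8 and bcl2fastq 2.20.0.422. The counting tool and the strand setting were not given in the sources used here. The deposited tables hold whole counts per transcript, although the tables are named as CPM, so count models were used on them as deposited. They list 1399 transcripts with at least 1 count in each library, so totals are not library depths, and transcripts with a count of 0 in a library are not listed. Symbols came from GENCODE vM21 (GRCm38) for 1385 transcripts, and promoters from RefSeq on GRCm38.p6.

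The 8 libraries were fitted with edgeR 4.0.16 in R 4.3.3 (quasi-likelihood, TMM scaling, 4 group means, 4 residual degrees of freedom), and p-values were adjusted over all 1399 transcripts. Alternatives with DESeq2 1.42.0, limma 3.58.1, other scalings, filters and sample sets are in the closing section. On simulated counts for rescue against cysteamine over 1399 transcripts, the fit called 100% of log2 changes of 2, 76% of 1, 52% of -1 and 92% of -2, and 7 of 1199 unchanged transcripts. The simulation changed 50 transcripts at each size, evenly in both directions, and did not shift the class high in NT. It therefore does not cover the dependence on scaling seen in the data.

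Named genes are the 12 highest and 12 lowest passing transcripts not high in NT, the 6 highest and 6 lowest that are, the 6 of each for the difference of effects (mean of at least 10 counts in the higher group, libraries not overlapping), the 3 with most counts, and members of 21 gene lists and 9 marker lists. Some of these genes are counted in their lists but not reported here by name. Members, lists, class and rule were chosen with earlier results of these data known; the stress element and heat shock motifs were added after the values were seen. Replicate numbers come from the titles. Their deviations correlated at 0.087 (NT2 with cysteamine) to 0.276 between groups, and at 0.230 for cysteamine with the rescue. Every pair of groups but NT2 with cysteamine was above 0.1, so same-numbered libraries tended to deviate together. Because not every pair was above 0.1, the numbers were not treated as pairs in the main fit.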

Additional observations from a re-analysis of the deposited data

How the results depend on the processing

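The number of transcripts that passed for rescue against cysteamine was 572. It was 371 (177 higher, 194 lower) with the class high in NT left out and 309 (169 higher, 140 lower) with DESeq2, and 445 to 578 when 1 library was left out. The other settings run stayed within 1.5 times, from 425 with all 14 libraries to 626 with a replicate block. Scaling moved the split: 264 and 308 became 391 and 194 with factors from transcripts not high in NT (median over all transcripts 0.21), and 230 and 368 with listed totals (median -0.17). For the difference of effects 184 passed, against 66 (45 higher, 21 lower) with DESeq2, 56 (38 higher, 18 lower) with all 14 libraries, and 111 to 154 when 1 library was left out. With a replicate block the counts were 626 (297 higher, 329 lower) and 255 (114 higher, 141 lower); the samples share only a number, and the pairing is not given by the labels. Of the single-gene values for rescue against cysteamine, 2259 kept direction and call, 267 lost the call, 1 gained it and 2 reversed. Those 2 were Hspg2 (-0.19) and Gpx4 (0.25), both with the length trend removed, an alternative chosen after seeing the data. For the difference of effects 891 kept both and 145 lost the call. The median of the 4 amino acid transporters, near 0 for rescue against cysteamine, turned positive at 0.0083 with DESeq2 size factors, 0.21 with factors from transcripts not high in NT, 0.21 with that class left out, 0.023 with a mean count of 20 or more, 0.014 with DESeq2, 0.0084 with all 14 libraries and 0.051 without the first rescue library (range when 1 library was left out: -0.16 to 0.051). For the difference of effects it turned at 0.00064 with the count filter and 0.23 without the first rescue library (range -0.37 to 0.23). The glycolysis median turned to 0.015 with factors from transcripts not high in NT and 0.072 with the length trend removed, and that of the mitochondrially encoded genes to 0.15 with the latter. The causes were not tested. Low counts limit the rescue side most, with a median of 28 and 22 counts a transcript.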

Other observations

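Genes of DNA replication and RNA processing were lower in the rescue than with cysteamine where they passed, apart from 2 RNA processing genes. Of 8 listed genes for the G1/S transition and replication 5 were lower (22% over all transcripts) and 0 higher in edgeR's test. At an unadjusted p under 0.05, 1 was higher. The knockdown was already lower than cysteamine for 5 of the 8 (21.1% over all transcripts) and higher for 1. The kinase gene Cdk4, which drives cells into S phase, measured 716 and 602 CPM with cysteamine and 334 and 261 CPM in the rescue (-1.12 ± 0.22). The replication clamp Pcna measured 457 and 341 CPM against 205 and 196 CPM (-0.98 ± 0.27) and the ribonucleotide reductase gene Rrm1 1129 and 894 CPM against 616 and 424 CPM (-0.92 ± 0.20). With DESeq2 2 of the 8 were lower, and with the scaling from transcripts not high in NT 3 were lower and 1 higher. Pcna did not pass without the first cysteamine library (-0.76) or either rescue library (-0.96 and -0.94). Of 15 genes for G2 and mitosis 3 were lower, near the share over all transcripts (22%), and 0 with DESeq2. Mki67, the common proliferation marker, measured 819 and 869 CPM with cysteamine and 847 and 1043 CPM in the rescue (adjusted p = 0.481). Of 21 RNA processing genes 12 were lower and 2 higher (22% and 18.9% over all transcripts), the latter Luc7l2 and Sf3b2 (0.49 ± 0.13). With the scaling from transcripts not high in NT 4 were higher and 6 lower, and with DESeq2 1 and 1. Sf3b2 did not pass without the first cysteamine (0.42) or first rescue library (0.48). Hnrnpk, an RNA-binding protein gene, measured 1365 and 1415 CPM against 706 and 684 CPM (-0.997 ± 0.13). It lay lower in both rescue libraries, as did 37.1% of all transcripts.

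Glycolysis genes went mostly the same way. Gapdh measured 1446 and 1614 CPM with cysteamine and 719 and 749.5 CPM in the rescue (-1.06 ± 0.15). The knockdown was lower than cysteamine for 5 of 8 listed genes (21.1% over all transcripts) and higher for 0. Of these 8, the rescue was lower than cysteamine for 4 and higher for 1 (22% and 18.9% over all transcripts). The 1 higher was P4ha1, which is also a matrix gene. Without any 1 of the 4 libraries compared 2 were lower, with the scaling from transcripts not high in NT 1 was lower and 2 higher, and with DESeq2 1 was lower. Of 11 proteasome genes 1 was higher (18.9% over all transcripts), Psmd1 (0.55 ± 0.21). It did not pass with DESeq2 or without the first cysteamine (0.36), first knockdown (0.55) or second rescue library (0.42). Among 6 genes of cholesterol and lipid synthesis 1 was lower (22% over all transcripts), the fatty acid synthase gene Fasn (-0.56 ± 0.14, and -0.49 with no call without the first rescue library). With the scaling from transcripts not high in NT 4 were higher and 0 lower. The desaturase gene Scd2 measured 3398 and 2824 CPM in NT2, 1594 and 1272 CPM with cysteamine, 1325 and 1262 CPM in the knockdown and 1734 and 1597 CPM in the rescue. Its difference of effects was 1.49 ± 0.21 (adjusted p = 4.31e-04 in edgeR's test), and it also passed with DESeq2 and with all 14 libraries. Of the 7 mitochondrially encoded genes 4 were lower (22% over all transcripts) and 0 higher, and with the length trend removed 2 were higher and 0 lower. With DESeq2, and without the second cysteamine or second rescue library, 1 of the 7 was lower.

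The GC box GGGCGG lay in 8 of 9 chaperone promoters of the endoplasmic reticulum, 7 of 8 heat shock, 6 of 8 nucleolar and 13 of 20 matrix promoters, against 32.7% of all promoter windows. The heat shock element, searched on both strands as GAA, TTC and GAA with 2 bases of any kind between neighbours, lay in 1 of 8 heat shock promoters, that of Hspd1, against 0.466% of all windows. The amino acid response element TGATGNAA was in 0 of the promoters of these 4 lists, against 3.45% of all windows. Each of these is a match of letters in a window of 250 bases and not a measured site. All windows include those of genes not listed here. The shares over the listed transcripts were not computed, so no enrichment of a list is read from these counts.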
